A study of Mus musculus with 2 samples.

Results

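Skin cells with the gene signature of group 2 innate lymphoid cells (ILC2s) were 61 of the 12558 cells kept for analysis, 7 from DPCP-challenged skin and 54 from control skin. They were picked from unique molecular identifier (UMI) counts, each UMI standing for a captured RNA molecule. A cell was a member with at least 2 UMIs of Gata3 and at least 1 each of Il7r and Rora. It had no UMI of the T cell receptor genes Cd3e, Trac and Trdc or of the mast cell gene Cpa3. It had fewer than 50 UMIs of Cd74, the invariant chain of antigen-presenting cells, and fewer than 20 of the neutrophil genes S100a8 and S100a9 together. Barcodes under 200 genes or above 10% mitochondrial UMIs had been removed. The 10 genes of this gate describe the choice and are no finding, and any gene that travels with them in single cells is shaped by the gate as well. CD45+ cells, the leukocytes, had been sorted from enzyme-digested full-thickness mouse skin and profiled with droplet sequencing of RNA 3′ ends. DPCP (diphenylcyclopropenone) is a chemical sensitizer used to induce contact hypersensitivity, an allergic skin inflammation. The groups were skin 2 days into a DPCP challenge and control skin at day 0, each labelled with its own oligonucleotide tag and processed in a common pool. With 1 tagged sample for each condition the study has no replicates here. No test between conditions was possible, and the 95% intervals cover counting error only. Mouse strain, age, sex, DPCP dose and the number of mice behind each tag are not given in the sources used here.

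ILC2s are lymphocytes without a rearranged antigen receptor that live in barrier tissues such as skin, lung and gut. They depend on the transcription factors GATA3 and RORα and on interleukin 7 (IL-7). Epithelial alarm signals reach them through ST2, the IL-33 receptor encoded by Il1rl1, through the IL-25 receptor Il17rb, through the thymic stromal lymphopoietin receptor Crlf2 and, in mouse skin, through the IL-18 receptor. Once stimulated they are known for IL-5, which supports eosinophils, for IL-13, which acts on epithelium and macrophages, and for the growth factors GM-CSF (Csf2) and amphiregulin (Areg).

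Gata3 had a median of 8 UMIs (lowest 2, highest 15) in the 7 DPCP members and of 7 UMIs (2 to 25) in the 54 control members. Il7r, the IL-7 receptor chain, had medians of 6 UMIs (1 to 14) in DPCP and 4 UMIs (1 to 26) in control members. Rora had medians of 5 UMIs (2 to 10) in DPCP and 6 UMIs (1 to 58) in control members. These are the values of the gate itself. Just inside the limit, 1 DPCP and 4 control members had exactly 2 Gata3 UMIs. Just outside it, 20 DPCP and 16 control cells failed on Gata3 alone, of which 2 control cells had 1 Gata3 UMI and the rest none. Cd3e alone kept out 1 DPCP and 6 control cells, Trac alone 0 and 4, Trdc alone 2 and 3, and Cpa3 alone 0 and 2. The Cd74 limit alone kept out 3 DPCP cells with a median of 12730 UMIs and 11 control cells with a median of 25679 UMIs. Those 11 control cells held 1252 UMIs of the myeloid gene Lyz2 along with 73 of Il1rl1 and 206 of Dach2, so the signature of the members was present beside that of phagocytes. The neutrophil limit alone kept out 3 DPCP and 1 control cell.

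The label was checked with the markers the gate does not use. Il1rl1 was found in 5 of 7 DPCP and in 47 of 54 control members. It was not particular to them, with a UMI in 742 of 7588 kept DPCP cells and 2334 of 4970 kept control cells. Members held 2.05% of its DPCP and 4.19% of its control UMIs. Il13 was found in 0 of 7 DPCP members, in whose summed RNA 3 UMIs would be 71.8 CPM, and in 3 of 54 control members. Any of Il1rl1, Arg1, Klrg1 and Dach2 was found in 7 of 7 DPCP and 49 of 54 control members. Arg1, Klrg1 and Dach2 are among the highest ratios of these same members, so this count describes them and does not check the label. Against the label, the remaining parts of the T cell receptor complex were not all absent. Trbc2, a constant region of the receptor β chain, had UMIs in 4 of 7 DPCP and 40 of 54 control members, and Cd3g in 1 and 10. With Cd3d, Cd3g, Trbc1 and Trbc2 also required to be at 0, 0 DPCP and 5 control members were left. The cells are therefore called ILC2-gated cells, after their rule.

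The members held 41783 UMIs in DPCP and 355394 UMIs in control skin, with medians of 4551 UMIs per cell (2248 to 11035) and 6223 UMIs per cell (1683 to 20133). Over all kept cells the medians were 4728.5 UMIs in DPCP and 8803 UMIs in control skin. No barcode sequence occurred under both conditions. DPCP members stood apart in their tags. Their own condition's tag made up 53.6% to 81.3% of the tag UMIs of a cell (median 69.6%), against 86.1% to 99.4% (median 92.9%) in control members. The same held for the DPCP T cell gates, with medians of 68.9% to 70.9%, while all kept DPCP cells had a median of 83.5%. At a limit of at least 80% own tag, 1 of the 7 DPCP members was left. Every value of DPCP members below rests on this assignment, and the part of the tags in those values was not tested.

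ILC2-gated cells made up a smaller share of the cells from challenged skin. They were 0.0923% of kept DPCP cells (95% Clopper-Pearson interval 0.0371% to 0.190%) and 1.09% of kept control cells (0.817% to 1.42%). Because cells rich in neutrophil RNA were many in challenged skin, the share was also taken over cells with fewer than 20 S100a8 and S100a9 UMIs. It was then 0.271% (0.109% to 0.557%) of 2584 DPCP cells and 1.12% (0.842% to 1.46%) of 4823 control cells. Among cells that fell into an ILC2, αβ T, regulatory T or γδ T gate, members were 3.20% (1.29% to 6.47%) of 219 DPCP cells and 23.9% (18.5% to 29.997%) of 226 control cells. Of the other gates of that group, αβ T cells numbered 38 in DPCP and 40 in control skin, regulatory T cells 23 and 18, and γδ T cells 151 and 114. As shares of kept cells, αβ T cells were 0.501% in DPCP and 0.805% in control skin, regulatory T cells 0.303% and 0.362%, and γδ T cells 1.99% and 2.29%. Over cells with few S100a8 and S100a9 UMIs, αβ T cells were 1.47% in DPCP and 0.829% in control skin, regulatory T cells 0.890% and 0.373%, and γδ T cells 5.84% and 2.36%. After each cell was thinned to 3000 UMIs, 6 of 5754 DPCP cells (0.104%) and 46 of 4390 control cells (1.05%) passed the gate; unthinned, 6 and 51 of the same cells did. The filter on mitochondrial UMIs had taken out 3.53% of DPCP and 20.8% of control barcodes. With 1 sample per condition, the spread of this share between mice is unknown.

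Levels are given in CPM, a gene's UMIs divided by all UMIs of the summed cells and scaled up, for the 54 control members, set against 3 lymphocyte gates of control skin and against all other control cells. A gene was called higher at a ratio of at least 2, or lower at a ratio of at most 0.5, with an interval that excludes 1. Against all other control cells, 1725 of 12703 tested genes were higher (13.6%) and 1263 were lower (9.94%), with a median log2 ratio of 0.35. Against αβ T cells, 243 of 2967 were higher (8.19%) and 202 lower (6.81%), with a median of -0.03. Against regulatory T cells, 242 of 2030 were higher (11.9%) and 157 lower (7.73%). Against γδ T cells, 431 of 4849 were higher (8.89%) and 786 lower (16.2%). These shares are the background for the counts that follow, and no test was made of any list.

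Of the alarmin receptors, the IL-33 receptor was the prominent one. Il1rl1 (mm10 chr1:40429570-40465415, + strand) had 260 UMIs in 47 of 54 control members, a median of 5 and a maximum of 15 in a cell. Its level was 732 CPM (645 to 826) in control ILC2-gated cells, 251 CPM in regulatory T cells, 25.1 CPM in γδ T cells and 17.2 CPM in αβ T cells. The ratio was 42.5 (19.2 to 117) over αβ T cells and 2.92 (2.00 to 4.41) over regulatory T cells. In all other control cells it was 115 CPM, a ratio of 6.34 (5.58 to 7.18). Thinned to 2000 UMIs, 75.5% (61.7% to 86.2%) of 53 members had an Il1rl1 UMI, against 9.80% (7.45% to 12.6%) of 551 C1qa-positive phagocytes. The shares without thinning were 87.0% at a median of 6223 UMIs and 35.4% at a median of 9932.5 UMIs. The order of levels thus put regulatory T cells second among the lymphocyte gates, and the intervals of αβ and γδ T cells overlapped.

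The remaining alarmin receptors were sparse in the members. Il17rb, for IL-25, had 10 UMIs in 5 control members (28.1 CPM) and Crlf2 had 13 UMIs in 11 (36.6 CPM, against 70.2 CPM in other control cells). Il18r1, an IL-18 receptor chain, had 38 UMIs in 11 members, 107 CPM against 571 CPM in αβ T cells, a ratio of 0.187 (0.129 to 0.266). Its partner Il18rap had 121 CPM in members and 18.3 CPM in other control cells. Il1r1, the IL-1 receptor, had no UMI in the members. In total 3 of 8 tested alarmin receptors were higher and 0 lower than in other control cells (median log2 ratio 0.59), and 1 of 4 was higher and 1 lower than in αβ T cells.

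Receptors of the common γ chain family were well represented. Il2ra, the high-affinity IL-2 receptor chain, had 131 UMIs in 40 control members, with a median of 2 and a maximum of 14. It reached 369 CPM (308 to 437) in ILC2-gated cells, 418 CPM in regulatory T cells, 57.1 CPM in γδ T cells and 34.5 CPM in αβ T cells. The ratio over regulatory T cells was 0.882 (0.632 to 1.25), an interval that includes 1, and that over αβ T cells was 10.7 (5.92 to 21.2). Il9r, the receptor of the ILC2 survival factor IL-9, had 155 CPM in members (29 of 54 cells) and 37.3 CPM in αβ T cells, a ratio of 4.15 (2.24 to 8.27). Il2rb, shared by IL-2 and IL-15, was lower than in αβ T cells, at 141 CPM against 359 CPM. Of the 7 family members tested against other control cells, 4 were higher and 0 lower (median 2.00); against αβ T cells 2 of 4 were higher and 1 lower.

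Receptors for nerve and lipid signals were led by Ramp1, a subunit of the receptor of the sensory neuropeptide CGRP. It had 107 UMIs in 41 control members, 301 CPM in ILC2-gated cells and 109 CPM in αβ T cells, a ratio of 2.76 (1.89 to 4.11). Calcrl, its partner in that receptor, had 81.6 CPM in 20 members and 33.2 CPM in other control cells. Ltb4r1, the leukotriene B4 receptor, had 276 CPM in members and 57.4 CPM in αβ T cells, a ratio of 4.80 (2.95 to 8.20). Nmur1, the neuromedin U receptor of mouse gut and lung ILC2s, and Ptgdr2, the prostaglandin D2 receptor CRTH2, had no UMI in any member. In other control cells both were close to 0 too, at 0.155 CPM and 0.117 CPM. In this list 5 of 14 were higher and 2 lower than in other control cells (median 0.62), and 2 of 4 were higher and 0 lower than in αβ T cells.

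Among the costimulatory and inhibitory receptors, Klrg1, an inhibitory receptor that binds cadherins, stood out. Klrg1 (mm10 chr6:122270596-122282882, - strand) had 109 UMIs in 34 control members, with a median of 1 and a maximum of 19. It reached 307 CPM in ILC2-gated cells, 184 CPM in regulatory T cells, 2.87 CPM in αβ T cells and no UMI in γδ T cells. Tnfrsf18, which encodes the costimulator GITR, had 208 CPM in members and 66.0 CPM in αβ T cells, a ratio of 3.15 (1.95 to 5.28). Cd28, the main T cell costimulator, had 2 UMIs in the members, 5.63 CPM against 284 CPM in αβ T cells. Icos was also lower, at 104 CPM against 413 CPM in αβ T cells. Of the list, 5 of 15 genes were higher and 1 lower than in other control cells (median 0.56), and 3 of 7 were higher and 4 lower than in αβ T cells. Ctla4 and Tnfrsf4 had no UMI in control members, against 577 CPM and 217 CPM in regulatory T cells.

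**Figure D1:**
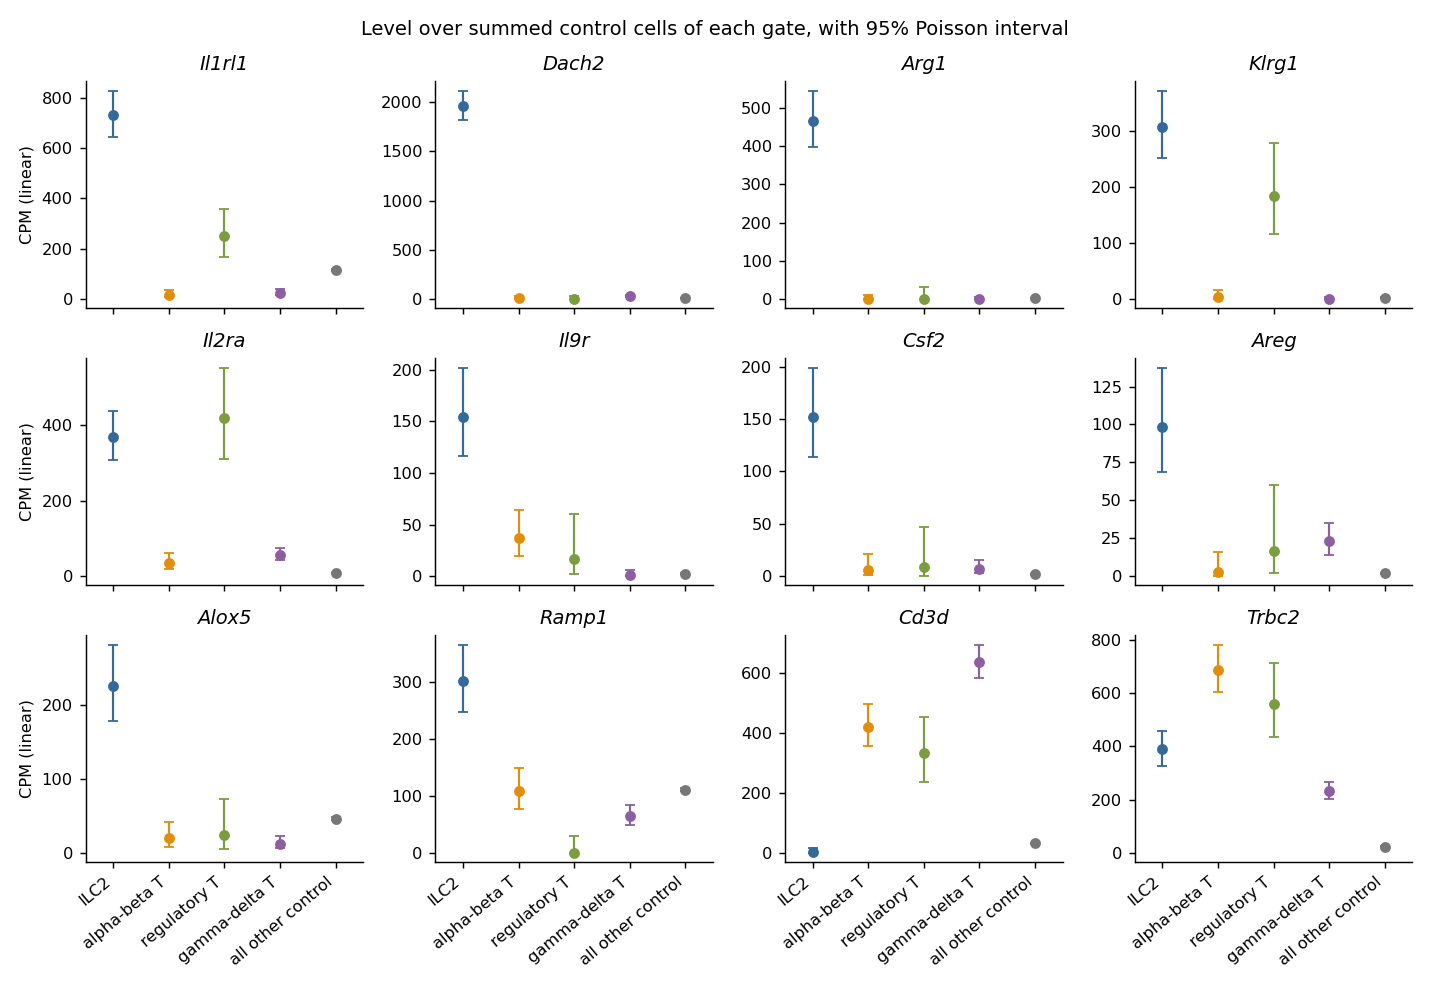
Level in CPM (linear axis) of 12 genes over the summed control cells of each gate, with ILC2-gated cells at the left; points are levels and bars their 95% Poisson intervals. Il1rl1 stands at 732 CPM in ILC2-gated cells and 251 CPM in regulatory T cells, Il2ra is similar in those gates, and Cd3d, at 2.81 CPM in ILC2-gated cells, is at 422 CPM in αβ T cells.

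The type 2 cytokines themselves were rare, while other secreted products were found in more members. Il5 had 11 UMIs in 8 control members with at most 2 in a cell, 31.0 CPM (15.5 to 55.4). These were 78.6% of the 14 Il5 UMIs of all control cells, and no control αβ, regulatory or γδ T cell held any. Il13 had 8 UMIs in 3 control members with at most 4 in a cell, 22.5 CPM, which were 30.8% of the 26 Il13 UMIs of control cells; αβ T cells had none and γδ T cells had 4. Il4 had 2 UMIs in 2 members, and Il9 and Il3 had none. Only 1 control member had both Il5 and Il13. None of the 7 DPCP members had a UMI of Il5, Il13 or Il4, in skin where αβ T cells held 9 of 26 Il13 UMIs and 2 of 5 Il5 UMIs.

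Il5 and Il13 lie close together on chromosome 11, in a cytokine locus on which GATA3 is known to act, so their start sites are shown. The windows are the 250 bases before each gene's start, from RefSeq on GRCm38.p6, the assembly of mm10, in the direction of the gene. Il5 is at chr11:53720544-53720793 on the + strand and Il13 at chr11:53634703-53634952 on the - strand. Capitals mark matches to the GATA words AGATAA or, with another first base, TGATAA, and likewise AGATAG or, with another first base, TGATAG, searched on both strands.
Il5: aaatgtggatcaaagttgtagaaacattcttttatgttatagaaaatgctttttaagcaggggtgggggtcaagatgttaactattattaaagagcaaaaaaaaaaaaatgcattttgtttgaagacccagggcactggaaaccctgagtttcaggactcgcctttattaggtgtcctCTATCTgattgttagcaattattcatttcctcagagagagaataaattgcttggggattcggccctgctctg
Il13: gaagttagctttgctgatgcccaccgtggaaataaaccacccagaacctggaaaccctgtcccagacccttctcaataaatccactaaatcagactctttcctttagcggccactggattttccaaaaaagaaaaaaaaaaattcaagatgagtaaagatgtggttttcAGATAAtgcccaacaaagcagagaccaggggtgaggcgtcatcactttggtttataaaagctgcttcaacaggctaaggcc
Each window held 1 match, which begins at base -72 from the start of Il5, on the reverse strand, and at base -81 from that of Il13. A match was present in 26.5% of the 32851 windows of the same length in the table, so it is a description of these letters and no sign of binding.

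Csf2, which encodes GM-CSF, had 54 UMIs in 16 control members, with a maximum of 10. Its level was 152 CPM in ILC2-gated cells, against 5.74 CPM in αβ T cells, 8.36 CPM in regulatory T cells and 6.85 CPM in γδ T cells. The ratio was 87.9 (61.5 to 125) over other control cells and 26.5 (6.98 to 224) over αβ T cells. Areg, the epidermal growth factor family ligand of tissue repair, had 35 UMIs in 10 control members, of which 17 were in 1 cell. Its 98.5 CPM in ILC2-gated cells compared with 22.8 CPM in γδ T cells and 2.87 CPM in αβ T cells. Csf1, the macrophage growth factor, had 39 UMIs in 26 members, 110 CPM against 9.85 CPM in other control cells. Tnfsf11 (RANKL) had 95.7 CPM in members and 86.1 CPM in αβ T cells, an interval of the ratio (0.660 to 1.88) that includes 1. Lif, of the IL-6 family, had 23 UMIs in 10 members. Of the 25 products listed, 11 of 16 tested were higher and 0 lower than in other control cells (median log2 ratio 2.84). Against αβ T cells 1 of 6 was higher and 2 were lower, and against γδ T cells 2 of 6 were higher and 3 lower. Any of Il13, Il5, Csf2 and Areg was found in 3 of 7 DPCP and 26 of 54 control members.

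Of the lymphoid transcription factors outside the gate, Id2, the inhibitor of E proteins on which innate lymphoid cells depend, had 534 UMIs in 52 of 54 control members, with a median of 9 and a maximum of 23. It reached 1503 CPM in ILC2-gated cells, 617 CPM in αβ T cells, 519 CPM in γδ T cells and 251 CPM in regulatory T cells. The ratio over αβ T cells was 2.43 (2.07 to 2.86). Pparg, a lipid-sensing nuclear receptor that mouse ILC2s express, had 138 CPM in members and 17.2 CPM in αβ T cells, a ratio of 8.003 (3.42 to 22.9), but 115 CPM in other control cells. Ets1 had 822 CPM in members and 1002 CPM in αβ T cells. Tcf7 and Lef1, partners in T cell development, were lower than in αβ T cells, at 98.5 CPM against 517 CPM and at 87.2 CPM against 204 CPM. Of the list, 10 of 26 were higher and 1 lower than in other control cells (median 0.66), 2 of 15 were higher and 4 lower than in αβ T cells, and 3 of 16 were higher and 5 lower than in γδ T cells.

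Trafficking genes showed a chemokine receptor pattern with much Ccr2. Ccr2, the monocyte chemoattractant receptor, had 549 UMIs in 51 control members, with a median of 8 and a maximum of 47. Its level was 1545 CPM in ILC2-gated cells, 543 CPM in regulatory T cells, 425 CPM in γδ T cells and 370 CPM in αβ T cells. In other control cells, which include monocytes, it was 1338 CPM. Cxcr6, the receptor of the tissue chemokine CXCL16, had 321 CPM in members and 350 CPM in αβ T cells, a ratio of 0.916 (0.703 to 1.19). Cd69, a retention receptor, had 256 CPM in members and 112 CPM in αβ T cells, and Cxcr3 had 2 UMIs in the members. Ccr7 and Ccr10 had no UMI. In this list 8 of 20 were higher and 3 lower than in other control cells (median 0.33), and 3 of 13 were higher and 3 lower than in αβ T cells.

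Arg1 was the metabolic gene with the widest gap between members and other cells. It encodes arginase 1, which splits arginine and is present in mouse ILC2s at rest. Arg1 (mm10 chr10:24915221-24927484, - strand) had 166 UMIs in 36 control members, with a median of 2 and a maximum of 14, and no UMI in control αβ, regulatory or γδ T cells. Its level was 467 CPM (399 to 544) in ILC2-gated cells. With 3 counts set over the summed αβ T cells the ratio was 54.2, and the interval of that ratio began at 43.6. In other control cells Arg1 was at 3.46 CPM, a ratio of 135 (109 to 168). Alox5, the leukotriene-forming lipoxygenase, had 225 CPM in members and 20.1 CPM in αβ T cells, a ratio of 11.2 (5.19 to 28.7). Its helper Alox5ap was lower than in other control cells, at 33.8 CPM against 665 CPM. Of the lipid and arginine genes, 3 of 15 were higher and 7 lower than in other control cells (median -0.87), and 3 of 3 tested were higher than in αβ T cells.

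Immediate early genes, which respond within minutes to stimulation and also to tissue digestion, were high in the members. Junb had 632 UMIs in 49 control members, with a median of 7 and a maximum of 44. It reached 1778 CPM in ILC2-gated cells, 535 CPM in regulatory T cells, 342 CPM in αβ T cells and 178 CPM in γδ T cells. Fosb had 602 CPM in members and 51.7 CPM in αβ T cells, a ratio of 11.7 (7.20 to 20.035). Against αβ T cells 9 of 9 tested genes were higher (median log2 ratio 2.19), against regulatory T cells 8 of 9, and against γδ T cells 9 of 10, with none lower. Against other control cells 8 of 14 were higher and 2 lower (median 1.09). All gates came from the same digest, and what digestion added to these levels was not tested.

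**Figure D2:**
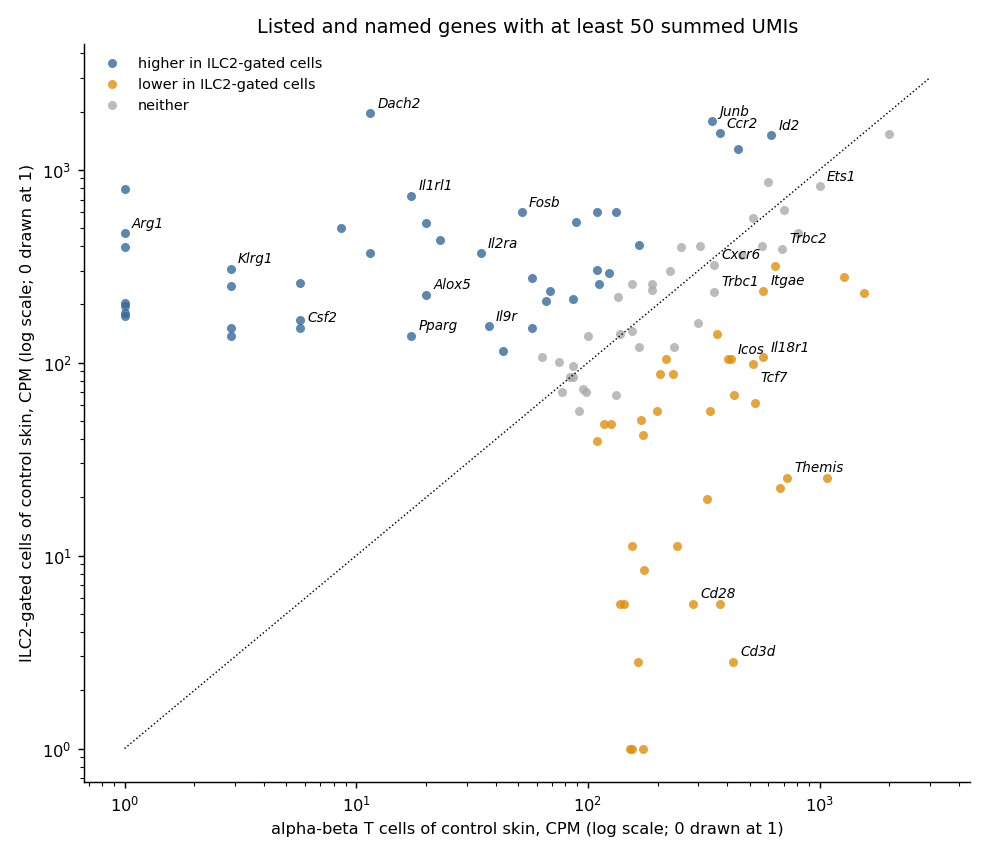
Level in CPM of 113 listed or named genes outside the gate in ILC2-gated cells (vertical, log scale) against αβ T cells (horizontal, log scale) of control skin, with levels of 0 drawn at 1 and the dotted line marking equality. The 42 genes called higher in ILC2-gated cells include Dach2, Il1rl1, Arg1 and Fosb, and the 37 called lower include Cd3d, Themis and Cd28, while Trbc2, Cxcr6 and Ets1 lie near the line.

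Genes of the antigen receptor complex were unequal. Cd3d, a CD3 chain, had 1 UMI in the 54 control members, 2.81 CPM against 422 CPM in αβ T cells and 638 CPM in γδ T cells. Cd3g, another CD3 chain, had 22 UMIs in 10 members, 61.9 CPM against 528 CPM in αβ T cells and 2234 CPM in γδ T cells. Cd4, Cd8a, Cd8b1, Cd5 and Cd6 had no UMI in any member. Themis, needed for T cell selection, had 25.3 CPM in members and 726 CPM in αβ T cells. The β chain constant regions differed from these. Trbc2 had 138 UMIs in 40 control members, 388 CPM against 686 CPM in αβ T cells, a ratio of 0.566 (0.455 to 0.701). Trbc1 had 83 UMIs in 32 members, 234 CPM against 350 CPM in αβ T cells. Thinned to 2000 UMIs, 52.8% of members and 0.544% of C1qa-positive phagocytes had a Trbc2 UMI, and 0 of 53 members had a Cd3d UMI. UMIs of the 3′ end do not show whether a β chain locus is rearranged. Of the list, 6 of 15 were higher and 1 lower than in other control cells (median 1.80), and 0 of 11 were higher and 8 lower than in αβ T cells (median -2.58). The αβ T gate requires Cd3e and Trac, which members must lack, so the count against it is shaped by both gates.

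Markers of other cells were counted over whole lists. The 10 T cell markers had 692 CPM in control members and 2504 CPM in αβ T cells, with Cd4, Cd8a, Cd8b1, Cd5 and Cd6 at 0; 2 of 9 were higher and 1 lower than in other control cells. Per cell their summed level was 181 to 1035 CPM in DPCP members (median 445) and 0 to 2183 CPM in control members (median 545). Markers of epidermal γδ T cells were lower than in γδ T cells for 6 of 6 tested, and against other control cells 1 of 6 was higher and 3 were lower. The αβ and γδ T gates require receptor genes that members must lack, so the values against them are shaped by the gates. Natural killer and ILC1 markers had 18 UMIs in all over 10 genes, with 0 of 10 higher and 2 lower than in other control cells. ILC3 markers had 33 UMIs, 28 of them of Kit, and 2 of 4 tested were higher. Mast cell markers were at 0 for 8 of 10 genes, Mcpt4 included. Basophil markers were at 0 for 6 of 6 genes, B cell markers for 4 of 5, keratinocyte markers for 6 of 7 and fibroblast markers for 6 of 6.

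The 14 macrophage and dendritic cell markers were all lower in members than in other control cells (median log2 ratio -4.45), with a summed level of 836 CPM against 20856 CPM. Per cell the sum was 659 to 1500 CPM in DPCP members (median 935) and 138 to 2542 CPM in control members (median 806). Flt3 was at 0 in both. Neutrophil markers had 0 of 8 genes higher and 4 lower than in other control cells; per cell their sum was 0 to 2669 CPM in DPCP members (median 234) and 0 to 857 CPM in control members (median 138). The limits on Cd74 and on S100a8 and S100a9 apply to members but not to the other control cells. Both counts of lower genes are therefore shaped by the gate. Without the Cd74 limit the log2 ratio of Lyz2 over other control cells was -1.65. What free RNA or attached cells gave to the summed levels was not tested.

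Outside the lists, the 12 highest ratios over other control cells were led by genes found in few members. Stab2, a scavenger receptor, had 70 UMIs in 10 members, 21 of them in 1 cell, and a ratio of 338 (218 to 537). Pcsk1, a prohormone convertase, had 41 UMIs in 16 members and a ratio of 283. Gm26907, a predicted gene, followed with 270.0 and Olfr1259, an olfactory receptor gene, with 249.6, the second of them in 26 members. Runx1t1, a transcriptional corepressor, had a ratio of 227 in 11 members. Dach2, of the dachshund family of transcription cofactors, was the most widespread of the 12. Dach2 (mm10 chrX:113297510-113836386, + strand) had 696 UMIs in 48 of 54 control members, with a median of 9.5 and a maximum of 48. It reached 1958 CPM (1816 to 2109) in ILC2-gated cells, 26.3 CPM in γδ T cells, 11.5 CPM in αβ T cells and no UMI in regulatory T cells. The ratio was 198 (176 to 223) over other control cells. The remaining genes were the polarity gene Pard3 (ratio 161), the secreted glycoprotein Stc2 (160), Igsf5 (136), Arg1, the potassium channel Kcnd2 (130) and Klrg1. Thinned to 2000 UMIs, 81.1% of members and 0.181% of C1qa-positive phagocytes had a Dach2 UMI.

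The 12 highest ratios over αβ T cells shared Dach2 (171), Klrg1 (107), Arg1 and Kcnd2 (46.1, interval from 37.0) with that group. Il1rl1 was also among them. Ctnna2, an α-catenin, had a ratio of 92.1 (interval from 74.4), but 102 of its 282 UMIs lay in 1 cell. Kcnd2 and Ctnna2 had no UMI in αβ T cells, so their ratios rest on the count set there. Chsy3, a chondroitin synthase, had a ratio of 87.2 and Lpcat2, which remodels lysophospholipids, one of 57.8 with UMIs in 42 of 54 members. Dst, a cytoskeletal linker, had a ratio of 52.9, Rnf128, an E3 ubiquitin ligase, 48.0, St5 45.1 and Pard3b 32.3.

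The 12 lowest ratios over αβ T cells, whose gate requires Cd3e and Trac, were led by Cd3d (0.00667). After it came Fgf13 (0.0152), Dgkh (0.0172), a diacylglycerol kinase, and Cd28 (0.0198). Gm2682, Ms4a4b and Themis had ratios of 0.0236, 0.0335 and 0.0349. Cd7, Cxcr3, Ms4a6c and Klrk1, which encodes the activating receptor NKG2D, lay between 0.0392 and 0.0482. Abtb2 had no UMI in members and 155 CPM in αβ T cells. Without the Cd74 limit the log2 ratios of Ms4a6c and Abtb2 were -0.05 and -0.89, short of the limit for lower genes.

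Control members were not uniform, and Itgae marked a small group among them. This split was chosen after the values were seen and is given as a description. Itgae, the αE integrin chain that binds epithelial E-cadherin, had 32, 16, 15, 10, 8 and 2 UMIs in 6 control members and 1 UMI in the other 48. The 6 cells had 6063 to 20133 UMIs (median 6775) and the other 48 had 1683 to 14725 (median 5920.5). Ccr6, a chemokine receptor, had 38 UMIs in 5 of the 6 cells and none in the other 48. Il18r1 had 31 UMIs in 6 of 6 cells and 7 UMIs in 5 of the other 48. Il17rb had 9 UMIs in 4 of the 6 and 1 UMI in the others. All 8 Il13 UMIs of control members lay in 3 of these 6 cells, whereas Il5 had 2 UMIs in 1 of them and 9 in 7 of the others. Il18rap, the partner chain of the IL-18 receptor, had 10 UMIs in 4 of the 6 cells and 33 UMIs in 23 of the other 48.

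The Itgae group lacked the genes that led the rest. Il1rl1, Arg1, Klrg1, Csf2, Areg, Alox5 and Pparg had no UMI in the 6 cells. In the other 48 control members they had 260, 166, 109, 54, 35, 80 and 49 UMIs, in that order of genes. Dach2 had 3 UMIs in the 6 cells and 693 in the other 48, and Ccr2 had 4 and 545. Il2ra had 3 UMIs in the 6 cells and 128 in the other 48. Of the gate genes, Gata3 had 32 and 418 UMIs, and Rora 98 and 349. Tcf7 had 16 UMIs in 6 of 6 cells and 19 in 12 of the other 48, and Icos 19 in 5 of 6 and 18 in 12 of 48. Of Xcl1, a chemokine listed here with the epidermal γδ T cell markers, 23 UMIs lay in 1 of the 6 cells. That cell was the one with 2 Itgae UMIs, at the limit of the split. It had 1 UMI each of Il7r and Rora, at the limit of the gate, and none of Ccr6. Of the natural killer and ILC1 markers, Nkg7 had 6 UMIs, Klrb1c 3 and Tbx21 3, each in 1 of the 6 cells and so not shared across them. In the other 48 these had 1, 1 and 0 UMIs. Ncr1 and Prf1 had 1 UMI each in the 6 cells and none in the others, while Gzma and Gzmb had the reverse. Cd3g had 8 UMIs in 3 of the 6 cells and 14 in 7 of the other 48, and Lck, a T cell kinase, 11 in 4 and 9 in 7. Trbc2 had 8 UMIs in 3 of the 6 cells and 130 in 37 of the other 48. The γ chain genes Tcrg-C4 and Tcrg-C1 had no UMI in the 6 cells, and 59 UMIs in 24 and 30 UMIs in 16 of the other 48, while Themis had 0 and 9. Further genes that led the split were Jaml, Nt5e (CD73), Pde4a, Ctsw and Sema6d. Of the 7 control members without an Il1rl1 UMI, 6 were these cells. None of the DPCP members had an Itgae UMI.

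**Figure D3:**
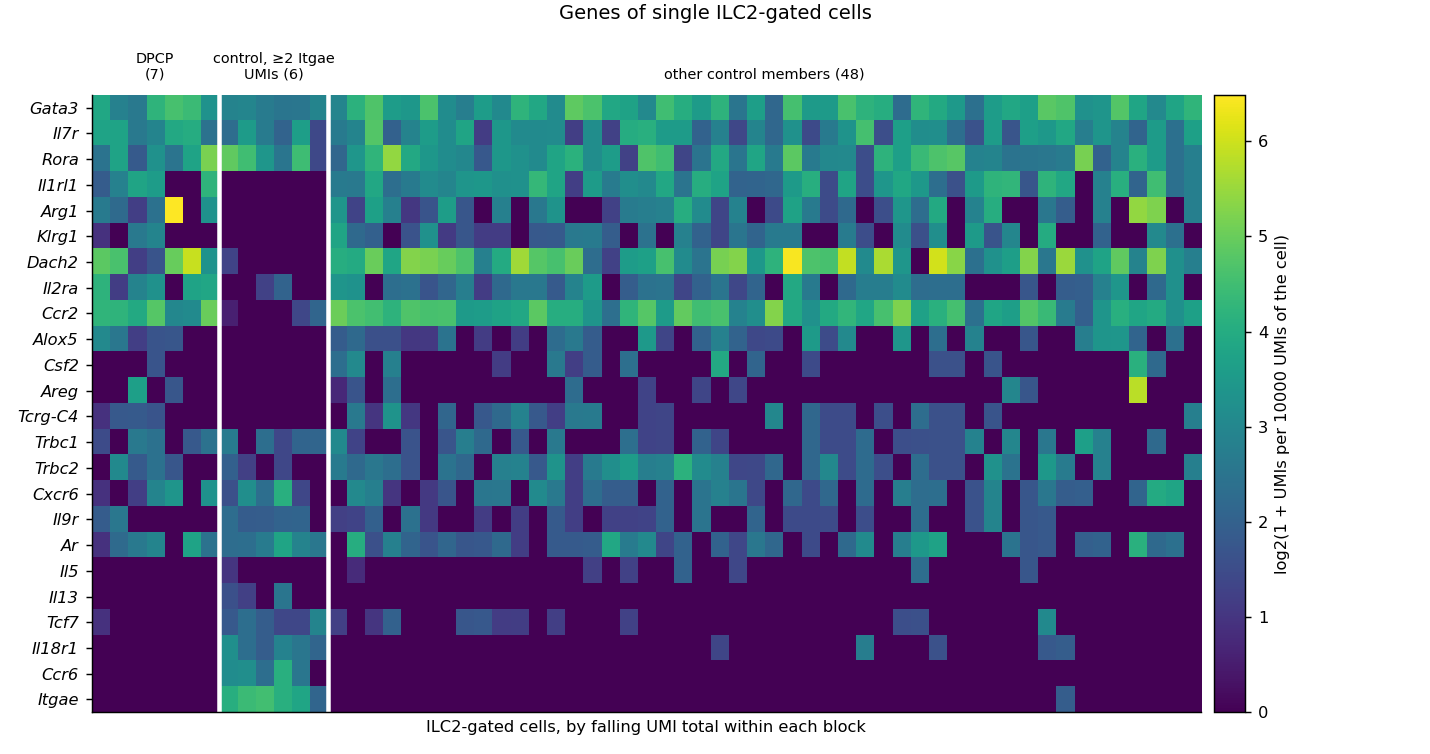
Values of 24 genes (rows) in each of the 61 ILC2-gated cells (columns), as log2(1 + UMIs per 10000 UMIs of the cell), in blocks of 7 DPCP members, the 6 control members with at least 2 Itgae UMIs and the other 48 control members. The middle block is dark for Il1rl1, Arg1, Klrg1 and nearly so for Dach2 and Ccr2, and bright for Itgae, Il18r1 and Ccr6.

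Challenged skin gave 7 members, so their genes are given cell by cell and no count of changed genes is given. In order of falling depth (11035, 8000, 7728, 4551, 4279, 3942 and 2248 UMIs), Il1rl1 had 3, 5, 10, 5, 0, 0 and 4 UMIs. Its level was 646 CPM (426 to 940) in DPCP members and 732 CPM in control members, a ratio of 0.883 (0.571 to 1.32) whose interval includes 1. In the DPCP T cell gates it was 228 CPM in regulatory T cells, 38.3 CPM in αβ T cells and 6.17 CPM in γδ T cells, the order seen in control skin save for γδ and αβ T cells. Dach2 had 31, 19, 1, 1, 13, 24 and 2 UMIs in DPCP members. The level was 2178 CPM in DPCP and 1958 CPM in control members, a ratio of 1.11 (0.884 to 1.39). On the log2 scale this is 0.15, and it was 0.70 without the Cd74 limit and 1.64 at 80% own tag, where 1 DPCP member is left.

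Arg1 had 6, 3, 1, 2, 38, 0 and 2 UMIs in the 7 DPCP members, against a median of 2 and a maximum of 14 in control members. The level was 1245 CPM (929 to 1632) in DPCP and 467 CPM in control members, a ratio of 2.66 (1.91 to 3.66). Without the cell that held 38 of the 52 UMIs, the log2 ratio was -0.32, and without the limit on S100a8 and S100a9 it was 0.47. Il2ra had 19, 1, 5, 4, 0, 5 and 3 UMIs, 886 CPM in DPCP and 369 CPM in control members, a ratio of 2.40 (1.62 to 3.48). Its log2 ratio was 0.67 without the deepest DPCP cell and 0.68 without the limit on S100a8 and S100a9. Klrg1 had 1, 0, 4, 3, 0, 0 and 0 UMIs in DPCP members, a ratio of 0.624 (0.263 to 1.27). Single cells therefore decided the higher sums of Arg1 and, in part, of Il2ra.

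Ccr2 had 20, 14, 11, 12, 3, 3 and 7 UMIs in DPCP members, 1675 CPM against 1545 CPM in control members. Areg had 10 UMIs in 2 DPCP members, 9 of them in 1 cell, 239 CPM against 98.5 CPM in control members. Csf2 had 1 UMI in DPCP members, 23.9 CPM against 152 CPM in control members, a ratio of 0.158 (0.00392 to 0.916). Junb was lower, at 1029 CPM in DPCP and 1778 CPM in control members, a ratio of 0.579 (0.415 to 0.789) that does not reach the limit of 0.5. Its log2 ratio was -0.12 without the limit on S100a8 and S100a9 and 0.19 at 80% own tag. Tnfrsf18 had 431 CPM in DPCP and 208 CPM in control members, a ratio of 2.07 (1.16 to 3.50). Trbc1 and Trbc2 had 239 and 263 CPM in DPCP members and 234 and 388 CPM in control members. Cd3d, Itgae, Ccr6 and Il18r1 had no UMI in DPCP members.

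**Figure D4:**
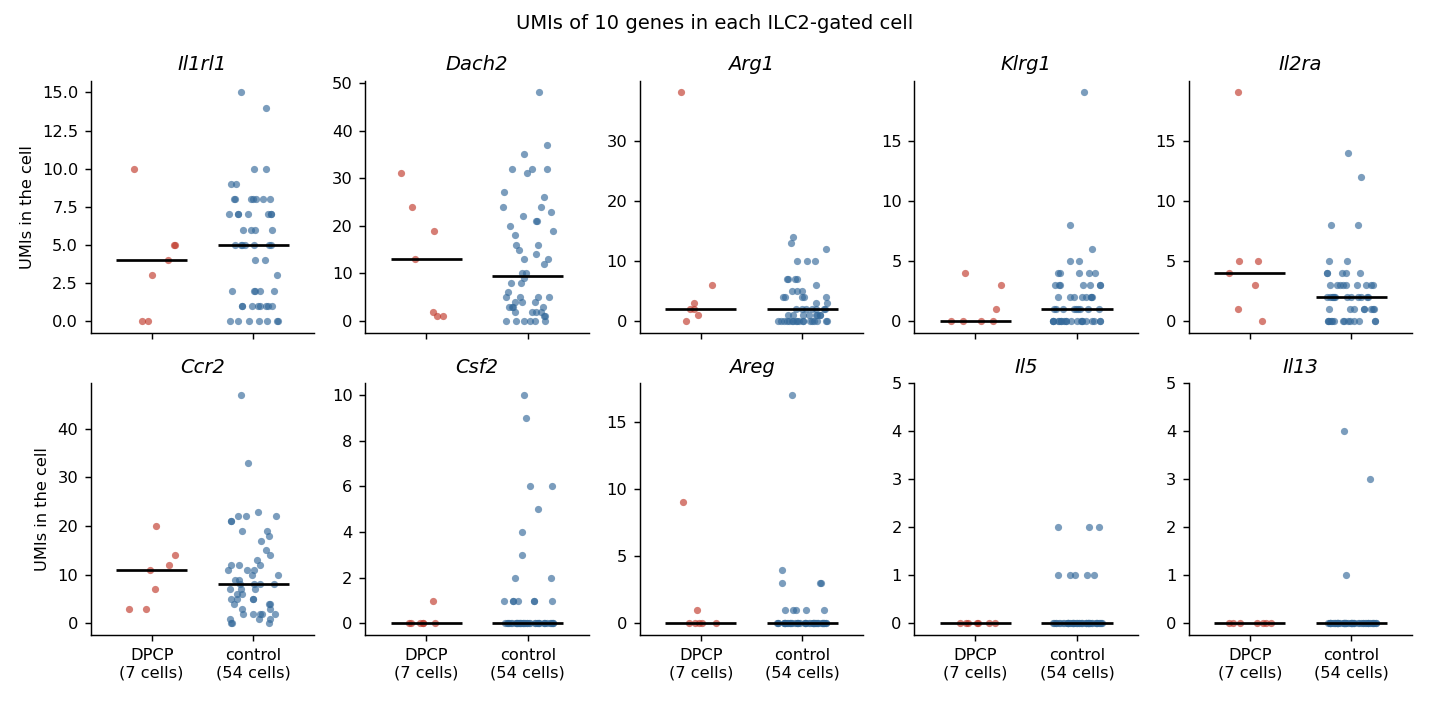
UMIs per cell (linear axis) of 10 genes in each ILC2-gated cell, with the 7 DPCP members at the left and the 54 control members at the right of each panel; points are cells and horizontal lines medians. The DPCP cell with 38 Arg1 UMIs lies above the control maximum of 14, and Il5 and Il13 are at 0 in every DPCP cell.

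By the rule of ratio, interval and cell number, the 6 highest and 6 lowest DPCP over control ratios were taken. Klf2, a factor that maintains genes of lymphocyte circulation, had the highest ratio, 9.21 (5.08 to 16.8). It had 26 UMIs in 5 of 7 DPCP members, 14 and 9 of them in 2 cells, and 24 UMIs in 16 of 54 control members. S1pr1, the egress receptor that KLF2 drives in T cells, had no UMI in DPCP members and 1 in control members. Stk11, the kinase LKB1, had a ratio of 6.54 (2.57 to 16.2) and Gpr65, a proton-sensing receptor, 4.58 (1.55 to 12.4). Mtrex, an RNA helicase of the exosome, had 4.25, Ppp1r2, a phosphatase inhibitor, 3.72 and Rnf220, an E3 ubiquitin ligase, 3.40 (1.08 to 9.28). Each of these rested on 6 to 26 UMIs in 5 DPCP cells. The sizes depended on the Cd74 limit. Without it the log2 ratio of Klf2 was 1.03, against 3.20 with it, and at 80% own tag it was 1.91. Without the Cd74 limit Mtrex had a log2 ratio of 0.48 and Rnf220 one of 0.97, both short of the limit of 1 for higher genes. Stk11 then had 2.03, and Gpr65 and Ppp1r2 had 1.33 each.

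The 6 lowest ratios all rested on 1 UMI in DPCP members, and 5 of them are given. A gene with no UMI in DPCP members was ranked as if it had 3, so genes at 0 can be missing from the 6. Trerf1, a transcriptional regulator, had a ratio of 0.0512, with 76 of its 166 control UMIs in 1 cell and 103 in the 6 Itgae cells. Gpr183, the oxysterol receptor that positions lymphocytes, had 23.9 CPM in DPCP members and 256 CPM in 32 of 54 control members, a ratio of 0.0935 (0.00234 to 0.534). Osbpl3, an oxysterol-binding protein gene, had the same ratio. Ppp2r5a, a phosphatase subunit, had 0.100 and the interferon-induced Ifi27l2a 0.104. In the summed RNA of the DPCP members 1 UMI corresponds to 23.9 CPM, so ratios of this size were at the limit of their depth. Without the Cd74 limit the log2 ratio of Trerf1 was -1.04, against -4.29 with it, and that of Gpr183 was -2.42. Ifi27l2a then had -0.51 and Ppp2r5a -0.97, both short of the limit for lower genes. Osbpl3 had -1.22 without the Cd74 limit and -0.01 at 80% own tag. Without the DPCP member richest in Arg1 UMIs, Gpr183 had -1.68 and Trerf1 -2.55.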

How the data were processed

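The deposited matrix holds whole-number UMI counts of 32285 genes and 12 sample tags, which the authors left unnormalised. It was written by Cell Ranger 7.0.0 per the file headers, while the submitters' processing notes name Cell Ranger 6.1.1, Seurat 4.0.1 and mm10. The condition of a barcode is its suffix, read through the row order of the deposited aggregation table. The deposited list of tag oligonucleotides was left unused. No cell type annotation was used, and cells were gated, not clustered.

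UMI counts were summed over the cells of a gate and scaled to CPM. Intervals are exact Poisson for levels, exact conditional binomial for ratios and Clopper-Pearson for shares, all at 95%, and cover counting error only. A side at 0 was set to 3 counts over the summed cells, so the ratio is a set value and its interval can reach past it. Genes at 0 were ranked by that set value, so they can stand behind genes with few UMIs. Calls used genes with at least 50 summed UMIs, without the gate genes, Foxp3, mitochondrial genes and repeated symbols.

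The αβ, regulatory and γδ T gates had fewer than 50 Cd74 and 20 S100a8 and S100a9 UMIs. αβ T cells had Cd3e and Trac but no Trdc, Foxp3 or Cpa3, regulatory T cells had Foxp3 as well, and γδ T cells had Cd3e and Trdc but no Trac. A mast cell gate (at least 5 Cpa3 UMIs, and Kit) held 0 cells. The phagocyte gate (at least 2 C1qa UMIs, no Cd3e) was chosen after seeing the data. Neither the mast cell gate nor the phagocyte gate had the limits on Cd74, S100a8 and S100a9.

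The named genes are those of the gate; list genes with at least 10 UMIs in control members; the 12 highest ratios over other control cells, and the 12 highest and 12 lowest over αβ T cells, with at least 50 summed UMIs, 20 CPM on the higher side and detection there in 10 cells or more; and the 6 highest and 6 lowest DPCP over control ratios, with at least 20 summed UMIs and detection in 5 cells or more. Each needed a ratio of at least 2 or at most 0.5 and an interval that excludes 1. List genes below that minimum are named where their level of 0 or near 0 is itself the value. Of the 6 lowest DPCP over control ratios, 1 is not reported here. The members and the 22 lists were chosen with earlier results of these data known. Of the listed symbols, Trgc1, Trgc2 and Trgv5 had no match in the matrix.

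Scrublet, as called by scanpy 1.11.5, marked 0 DPCP and 3 control cells, so it did not work here, and no doublet was removed. None of the members was marked or lay in the top 5% of scores. Alternatives were other cell filters and gate limits, an own-tag limit, other minimums, scaling without mitochondrial and ribosomal protein genes, CPM averaged cell by cell, other thinning depths and, added after seeing the data, leaving out named members. Python 3.11.15, numpy 2.4.6, scipy 1.17.1, pandas 2.3.3 and matplotlib 3.10.9 were used, and the procedure was tested on simulated data. The simulated counts were Poisson and left out variation between cells. Of genes changed 4-fold, 64% were called against other control cells and 100% against αβ T cells. Of unchanged genes, 1.29% and 0.284% were called. Gene coordinates are those of GENCODE M21 on mm10.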

Additional observations from a re-analysis of the deposited data

How the results depend on the processing

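With Cd3d, Cd3g, Trbc1 and Trbc2 also at 0, members numbered 0 in DPCP skin (0%) and 5 in control skin (0.101%). Against other control cells 779 genes were then higher and 191 lower, and against αβ T cells 121 and 103, with fewer cells summed. At a limit of at least 80% own tag, 1 DPCP member was left (0.0212%). Under the other alternatives the DPCP members numbered 6 to 10 and the control members 46 to 65. With a minimum of 20 summed UMIs, 453 genes were higher and 512 lower than in αβ T cells, and with 200 it was 59 and 27, since other numbers of genes were tested. The log2 ratio of Itgae over other control cells was positive with all members and 1.75 with CPM averaged cell by cell. It reversed to -3.56 without the 6 members with at least 2 of its UMIs. The DPCP over control log2 ratio of Arg1 was -0.32 without the DPCP member with the most Arg1 UMIs. Ratios of single genes stayed inside their counting interval in 198 of 213 DPCP over control values, 441 of 479 over αβ T cells and 350 of 403 over other control cells. Part of this was fixed in advance. The own-tag limit left all 4970 control cells, and removing high Scrublet scores took out 0 members. Shares of control members with a UMI of a gene moved out of their interval in 9 of 20 cases when thinned to 4000 instead of 2000 UMIs. At 80% own tag, ratios of genes with no UMI in the DPCP cell that was left gave no bound and are not given.

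No paired analysis was possible because each condition is 1 tagged sample and no replicate numbers are given. Depth limits the DPCP members most, with 41783 UMIs in 7 cells, in which rare transcripts such as Il5 and Il13 can be missed. Whether DPCP members with a low own-tag share carry the right condition was not tested. The share of members, which was below that of control skin over each of the 3 denominators used, has no measure of spread between mice.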
